A study of Mus musculus with 8 samples.

Results

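Metallothioneins are small cysteine-rich proteins that bind zinc and copper ions, and the genes described here are Mt1, Mt2 and Mt3. They are 3 of the 31053 genes in the count matrices and were picked by symbol, with Mt3 picked because its level differed strongly between the replicates of the prefrontal cortex (PFC). That difference is therefore given as a description without a test. The libraries were single-cell RNA sequencing libraries of PFC and striatum from male C57BL/6N mice, 2 wild-type (WT) and 2 Setd1a+/- for each tissue, and 8 in all. Setd1a+/- mice carried a CRISPR-Cas9 frameshift in exon 15 of 1 copy of Setd1a, a histone H3 lysine methyltransferase gene, and each library held the pooled tissue of 2 mice. The mice were untreated and labelled as 8 to 10 weeks old. An older age stands in the paper. The striatal libraries are labelled as nucleus accumbens, while the study's design names dorsal and ventral striatum. The cells with a deposited annotation numbered 23687, in 8 cell types in the PFC and 10 in the striatum.

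Metallothioneins hold their metal ions through the sulfur atoms of cysteines and release them as free zinc, oxidation and demand change. Mt1 and Mt2 are made in most tissues, and their transcription rises with zinc, cadmium and glucocorticoids, the metal response being mediated by the zinc-sensing transcription factor MTF1. In the brain both are known as astrocyte genes. Mt3, also called growth inhibitory factor, is mostly restricted to the nervous system, responds little to metals, and is known from astrocytes and from neurons that pack zinc into synaptic vesicles. Mt4, the remaining gene of the cluster, is a gene of stratified epithelia.

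The genes lie side by side on the plus strand of chromosome 8 of GRCm38, in the order Mt4, Mt3, Mt2 and Mt1, within 43131 bases. Mt3 (ENSMUSG00000031760) spans chr8:94152607-94154146, Mt2 (ENSMUSG00000031762) spans chr8:94172664-94173568, and Mt1 (ENSMUSG00000031765) spans chr8:94179082-94180327. Each has 3 exons. The coding sequences from GENCODE vM21 are shown because they give both the protein family's defining feature and the distance between its members, with every cysteine codon (TGC or TGT) in capitals:
Mt1: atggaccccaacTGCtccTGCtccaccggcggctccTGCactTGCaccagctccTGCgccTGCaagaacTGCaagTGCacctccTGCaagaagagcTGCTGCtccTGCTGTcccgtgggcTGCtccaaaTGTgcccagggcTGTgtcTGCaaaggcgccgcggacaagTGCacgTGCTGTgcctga
Mt2: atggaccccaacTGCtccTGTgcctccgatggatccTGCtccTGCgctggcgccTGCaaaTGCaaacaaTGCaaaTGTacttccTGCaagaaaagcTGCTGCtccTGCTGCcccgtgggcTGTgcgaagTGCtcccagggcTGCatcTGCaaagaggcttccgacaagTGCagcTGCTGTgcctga
Mt3: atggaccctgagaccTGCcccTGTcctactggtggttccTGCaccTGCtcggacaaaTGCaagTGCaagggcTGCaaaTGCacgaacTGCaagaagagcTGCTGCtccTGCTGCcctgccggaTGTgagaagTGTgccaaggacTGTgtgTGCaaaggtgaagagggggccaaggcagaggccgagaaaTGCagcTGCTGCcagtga

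All 3 carry 20 cysteine codons, among 61 codons in Mt1 and Mt2 and 68 in Mt3. Mt3 is the longer member, with 207 coding bases against 186. Mt1 and Mt2 were identical at 148 of 186 aligned bases (79.6%), while Mt3 was 68.9% identical to Mt1 and 69.2% identical to Mt2. The longest run of identical bases between any pair of their annotated transcripts was 27 bases. No run of 40 bases in the 3 genes' transcripts occurred in an annotated transcript of another gene on the same strand. On the opposite strand, Mt2 shared such runs with Gm45774, an antisense gene that overlaps it (chr8:94170748-94173412).

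The libraries held between 15154268 and 26277553 unique molecular identifiers (UMIs, each standing for 1 captured transcript molecule), and between 1508 and 4361 annotated cells. Levels are given in CPM, the UMIs of a gene scaled to 1000000 UMIs of all genes, summed over the annotated cells of a type in a library. UMIs were captured at the 3′ end of transcripts and were not divided by length, and the annotated transcripts are 549, 511 and 536 bases long for Mt1, Mt2 and Mt3. Setd1a itself was at 5.6 and 9.33 CPM in the Setd1a+/- libraries of the PFC against 8.45 and 11.2 in WT, and at 9.16 and 12.5 against 13.4 and 15.2 in the striatum. Markers of every annotated type were highest in their own type, except 3 of 6 interneuron markers in the striatum, where Gad2 and Slc32a1 were highest in D1 medium spiny neurons and Pvalb in newly formed oligodendrocytes. Pairs of libraries shared between 1 and 24 cell barcodes. Barcodes outside the annotation that held 1 to 100 UMIs were summed as a measure of free RNA, the transcripts that droplets take up from broken cells.

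Mt1 was an astrocyte gene in both tissues. In PFC astrocytes its level was 10003 and 10822 CPM in WT and 5964 and 10974 in Setd1a+/- libraries, so that about 1 in 100 captured transcripts came from this gene in 3 of the 4 libraries. In striatal astrocytes it was 10486 and 12593 CPM in WT and 10827 and 8441 in Setd1a+/- libraries. Every one of the annotated astrocytes of all 8 libraries had at least 1 Mt1 UMI, with medians of 10 to 27 UMIs per cell. The next type in the order was oligodendrocytes in the PFC (mean 715 CPM) and endothelial cells in the striatum (mean 1456 CPM), and in neither tissue did the libraries of astrocytes and of the next type overlap.

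Below astrocytes, the order of Mt1 levels was loose. In the PFC, oligodendrocytes, newly formed oligodendrocytes, oligodendrocyte progenitor cells, microglia and endothelial cells had means between 531 and 715 CPM, followed by excitatory neurons (191 ± 47.4 CPM, SD, n = 4) and interneurons (162 ± 65.9, SD, n = 4). Each neighbouring pair in that order overlapped between libraries. In the striatum, endothelial cells, D1 medium spiny neurons, oligodendrocyte progenitor cells, D2 medium spiny neurons, microglia, newly formed oligodendrocytes and oligodendrocytes followed each other between 1456 and 768 CPM with overlapping libraries. Neural stem cells and neuroblasts (289 to 620 CPM) and interneurons (266 to 493) were lower than oligodendrocytes in every library. D1 and D2 medium spiny neurons, the projection neurons of the striatum, had 1022 and 890 CPM of Mt1 on average, above the level of PFC excitatory neurons in each library.

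These lower levels have to be read beside the free RNA. Free RNA held 525 to 982 CPM of Mt1 in the PFC libraries and 1059 to 1165 in the striatal ones. PFC excitatory neurons reached 0.166 to 0.303 of the free RNA level of their own library, D1 neurons 0.691 to 1.17 of it, and astrocytes 7.53 to 13.9 of it over both tissues. Mt1 UMIs were found in 51.3 to 62.4% of excitatory neurons and in 79.8 to 90.8% of D1 neurons, but depth per cell differed between types. After thinning each cell to 1000 UMIs the shares were 13.7 to 19.4% and 50.3 to 67%, beside 43.3 to 51.4% of striatal oligodendrocytes. How much of the Mt1 signal outside astrocytes came from free RNA was not tested.

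**Figure D1:**
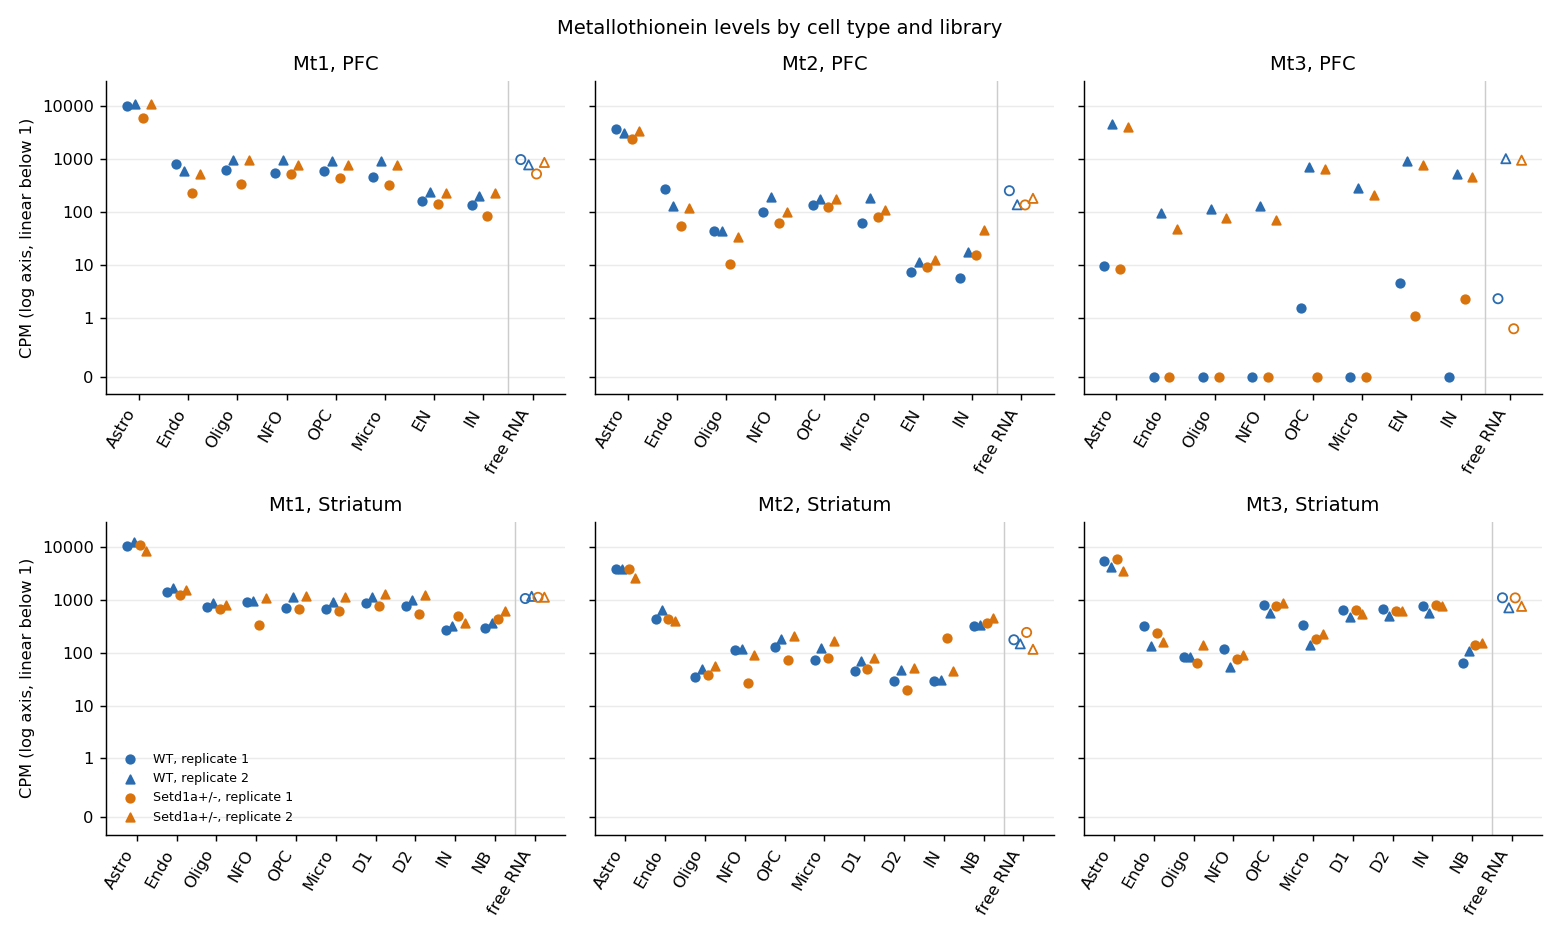
Levels of Mt1, Mt2 and Mt3 (rows: PFC above, striatum below; y axis in CPM, logarithmic above 1 and linear below) for each annotated cell type and, as open symbols, for free RNA; each point is 1 library, coloured by genotype and shaped by replicate. Astrocytes stand above every other type for Mt1 and Mt2 in all 8 libraries, and the PFC replicate 1 libraries (circles) fall to 0 to 9.65 CPM for Mt3 alone.

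Mt2 followed the same astrocyte pattern at a lower count. PFC astrocytes had 3716 and 3167 CPM in WT and 2375 and 3390 in Setd1a+/- libraries. Striatal astrocytes had 3750 and 3766 CPM in WT and 3769 and 2591 in Setd1a+/- libraries, so the second Setd1a+/- library lay apart from 3 that differed by less than 1%. Mt2 UMIs were found in 98.6 to 100% of astrocytes. No other type overlapped astrocytes in either tissue.

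Mt2 fell further than Mt1 outside astrocytes. In the PFC, oligodendrocyte progenitor cells, endothelial cells, newly formed oligodendrocytes and microglia had means of 109 to 153 CPM with overlapping libraries. Oligodendrocytes (10.2 to 43.5 CPM), interneurons (5.72 to 46.3) and excitatory neurons (7.42 to 12.5) were lower than all of these in every library. In the striatum, endothelial cells (439 and 631 CPM in WT, 433 and 395 in Setd1a+/-) and neural stem cells and neuroblasts (316 and 329 in WT, 367 and 456 in Setd1a+/-) formed a second tier that overlapped neither astrocytes nor the remaining types. The remaining 7 types had means between 36.5 and 149 CPM. Of all types other than astrocytes, only striatal endothelial cells and striatal neuroblasts exceeded the free RNA level of Mt2 in all 4 of their libraries, by 1.79 to 4.28 times and 1.52 to 3.92 times.

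The ratio of Mt1 to Mt2 UMIs set cell types apart. It was steady in astrocytes, at 2.51 to 3.42 in the PFC and 2.8 to 3.34 in the striatum. Oligodendrocytes (median 24.8 in the PFC and 17.9 in the striatum), excitatory neurons (19.5), D1 neurons (16.3) and D2 neurons (25.7) held far fewer Mt2 than Mt1 UMIs, and their ratios lay above the range of free RNA, 3.85 to 9.64 over the 8 libraries. In striatal neural stem cells and neuroblasts the ratio was 0.914 to 1.36, below that of every other type in every library. Endothelial cells had a median of 4.23 in the PFC and 3 in the striatum.

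**Figure D2:**
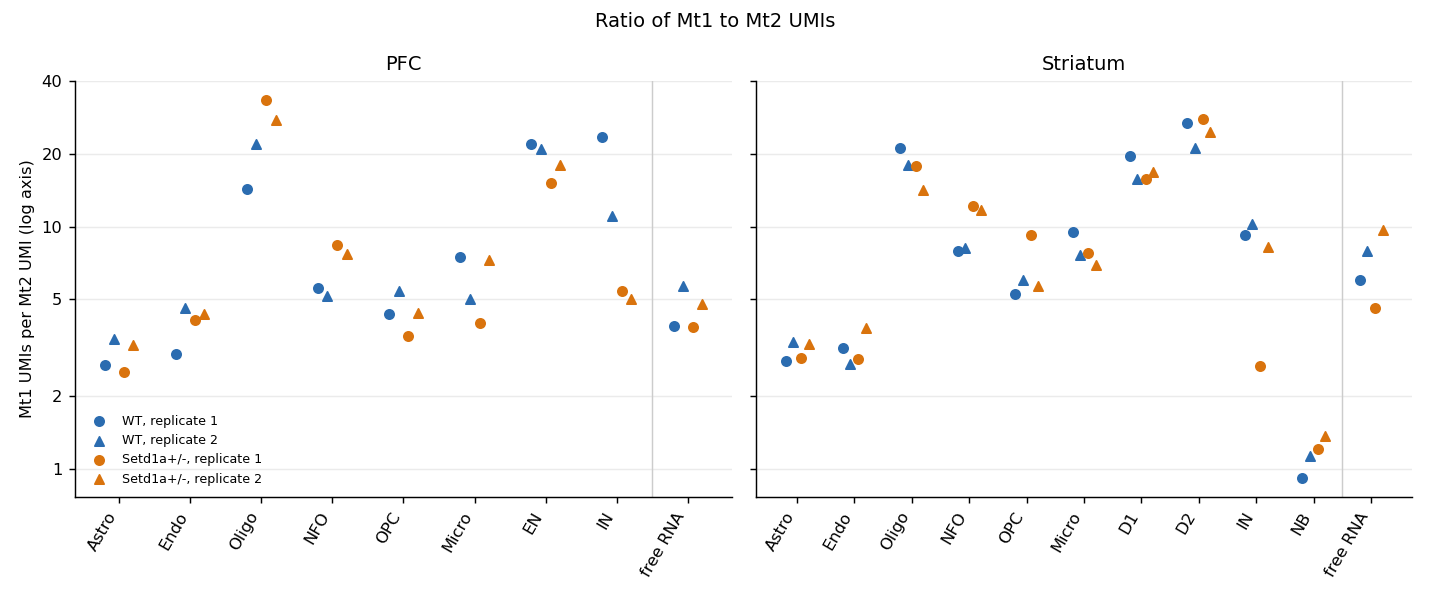
Mt1 UMIs per Mt2 UMI (logarithmic y axis) in each annotated cell type and in free RNA, with 1 point per library, coloured by genotype and shaped by replicate. Astrocytes stay between 2.51 and 3.42 in all 8 libraries, striatal neuroblasts lie near 1, and oligodendrocytes, excitatory neurons and D1 and D2 neurons lie between 14.2 and 33.4.

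The second tier of neuroblasts was not uniform. Of the annotated neural stem cells and neuroblasts, those with no UMI of 8 astrocyte markers had 111 to 347 CPM of Mt2 and 157 to 377 CPM of Mt1. Those with 1 to 3 such UMIs had 289 to 510 CPM of Mt2, and the 2 to 21 cells per library with 4 or more had 614 to 1227 CPM. In each library Mt2 was thus higher in the cells of this class with more UMIs of the 8 astrocyte markers summed. In this class 5 to 7 of the 8 markers were detected per library. Gfap had no UMI in any library, Aqp4 had none in the second WT library, and Aldh1l1 was seen only in the first Setd1a+/- library. Neural stem cells of the adult striatal border share genes with astrocytes, and the part of astrocyte transcripts in these values was not tested.

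Mt3 had a broader pattern than its neighbours. In striatal astrocytes it was 5494 and 4151 CPM in WT and 5803 and 3515 in Setd1a+/- libraries, again with no overlap with any other type. The types that came next were progenitors and neurons. Oligodendrocyte progenitor cells (mean 746 CPM), interneurons (724), D2 neurons (602) and D1 neurons (575) overlapped each other, and all 4 lay above microglia (221), endothelial cells (214), neuroblasts (117), oligodendrocytes (91.6) and newly formed oligodendrocytes (85.1) in every library. Free RNA held 707 to 1093 CPM of Mt3 in the striatum, so each type but astrocytes was near or below it, with D1 neurons at 0.59 to 0.704 of the free RNA level.

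In the PFC replicate 2 libraries astrocytes, excitatory neurons, progenitors and interneurons were again highest, and endothelial cells were last. Astrocytes had 4707 CPM in WT and 3984 in Setd1a+/-, excitatory neurons 903 and 786, oligodendrocyte progenitor cells 703 and 656, and interneurons 526 and 453. Microglia had 287 and 210 CPM, and newly formed oligodendrocytes, oligodendrocytes and endothelial cells were between 48.2 and 133, with endothelial cells (95.4 and 48.2) below both oligodendrocyte classes. In these libraries Mt3 UMIs were present in 90.4 and 89.9% of excitatory neurons and in at least 99.2% of astrocytes. Among the 7 excitatory neuron subtypes, the WT replicate 2 library ranged from 761 CPM in SL-Myh7 to 1004 CPM in DL-Foxp2, the deep-layer Foxp2 neurons. The Setd1a+/- replicate 2 library had the same highest subtype, at 906 CPM, and was lowest in DL-Pou3f1, at 468 CPM from 24 UMIs in 8 cells. Mt1 means over the subtypes ran from 158 CPM in SL-Cux2 to 238 CPM in DL-Nnat and overlapped between all neighbours in the order. Mt2 was at most 37.4 CPM in any subtype and library.

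In the PFC replicate 1 libraries Mt3 was nearly missing from every cell type. Over all annotated cells there were 22 Mt3 UMIs in the WT library and 7 in the Setd1a+/- library (2.24 and 0.851 CPM), against 8814 and 4746 UMIs in replicate 2 (826 and 791 CPM). This is a 369-fold difference in WT and a 929-fold difference in Setd1a+/-. Astrocytes held 4 and 1 Mt3 UMIs in replicate 1, from 187 and 63 cells, and excitatory neurons held 17 and 5. In 10 of the 16 combinations of type and replicate 1 library no Mt3 UMI was seen, where the 3 UMIs that a count of 0 allows correspond to 1.5 to 30.4 CPM. The striatal libraries of both replicates lay between 540 and 844 CPM over all annotated cells, close to PFC replicate 2.

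The gap was also present outside the annotated cells. Free RNA of the PFC replicate 1 libraries held 2.3 and 0.813 CPM of Mt3, against 1020 and 954 in replicate 2. Mt1 and Mt2 had no gap of that size. In astrocytes, replicate 2 over replicate 1 was 1.08-fold for Mt1 in WT and 1.84-fold in Setd1a+/-, and 0.852-fold and 1.43-fold for Mt2. Over all annotated cells it was 0.781-fold in WT and 3.71-fold in Setd1a+/- for Mt1, and 0.508-fold and 4.1-fold for Mt2. The genes flanking the cluster had no such gap, with Gnao1 at 187 and 202 CPM in replicate 1 and 197 and 194 in replicate 2, and Nudt21 at 71.2 and 84.9 against 67 and 66.8.

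Mt3 was the most extreme of a small set of genes with this gap. Of 7052 genes above 20 CPM in both libraries of either replicate, 12 were more than 10-fold lower in both replicate 1 libraries, and they lie on 8 chromosomes. After Mt3 (523-fold, mean of both genotypes) came Gstp1, a glutathione transferase (55.6-fold), Plekhj1 (47.4-fold), Ap2a1, a clathrin adaptor subunit (36.7-fold), and the glycolytic enzyme gene Eno1 (19.3-fold). Gapdh, another glycolytic enzyme gene and a common reference for normalization, was at 73.1 and 47.1 CPM in replicate 1 and at 862 and 889 in replicate 2. The others were Brd3os, Ube2m, Ache, Mark2, Asna1 and Eri3. Only Gm11361 passed the same limits in the opposite direction (12.3-fold lower in replicate 2). In the 4 striatal libraries all 12 were above both PFC replicate 1 libraries. Genes such as Gapdh are used by every cell, and a cause for their shared low count was not tested. The count matrices of all 8 libraries list the same 31053 genes. The sources used here do not say whether every library was counted with the same annotation and settings, so a low level and a low share of counted reads cannot be told apart for these 12 genes.

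**Figure D3:**
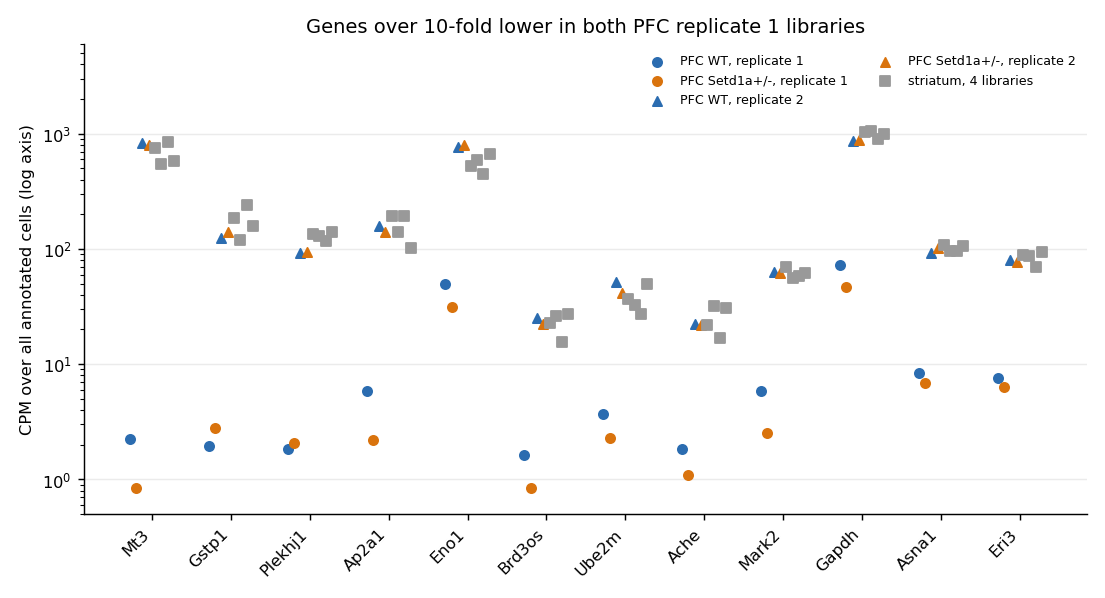
The 12 genes that were over 10-fold lower in both PFC replicate 1 libraries than in replicate 2 (x axis, ordered by fold), with their levels over all annotated cells in CPM on a logarithmic axis. Circles are PFC replicate 1, triangles PFC replicate 2 and grey squares the 4 striatal libraries; circles lie below the other points for every gene, from 0.851 and 2.24 CPM for Mt3 to 47.1 and 73.1 for Gapdh.

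Among astrocytes of one library, cells with more Mt1 also had more Mt2. Spearman's rho between the shares of a cell's UMIs that came from Mt1 and from Mt2 was 0.428 to 0.613 over the 8 libraries (31 to 354 cells each), and 0.392 to 0.459 after each cell was thinned to 1000 UMIs. Between Mt1 and Mt3 it was 0.274 to 0.699 in the 6 libraries with Mt3, and 0.157 to 0.701 after thinning. Cells of a library share its preparation, and these values describe them only. The counts per astrocyte were widely spread, and so was the depth per cell. In the striatal WT replicate 1 library the lowest astrocyte had 4 Mt1 UMIs, the median 19 and the highest 185. That highest cell held 12888 UMIs of all genes, against a median of 1863 per astrocyte there, and 14 UMIs of astrocyte markers.

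Across 18 groups of tissue and cell type, the genes whose mean log2(CPM + 1) followed Mt1 most closely of 12787 genes were A330048O09Rik (Pearson's r = 0.898), Plcd4, Etnppl, Cyp4f15 and Lcat (0.875). For Mt2 they were Lfng (0.903), Mfge8, Fzd2, Mlc1 and Sdc4 (0.892). Of these, 4 of 5 stayed in the list for both genes when PFC replicate 1 was left out. For Mt3 the list was Ring1 (0.91), Uqcrc1, Med25, Gapdh and Dtx3, and none of them stayed. Without PFC replicate 1, Mt3 was closest to Kcnk1 (0.964), Tspan7, Acsl6, Mras and Gabrb1. Mt1 and Mt2 had r = 0.862 with each other, while Mt3 had 0.524 with Mt1 and 0.413 with Mt2. The groups of a tissue share libraries, so these are descriptions of pattern.

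The next comparison asked whether metallothionein levels differ between the same cell type of PFC and striatum. UMIs summed per library were tested across all genes with edgeR's quasi-likelihood test (4 libraries per tissue, genotype as a covariate), and a gene was called at an adjusted p (Benjamini-Hochberg) under 0.05 and a change above 2-fold. Mt1 was called in 2 of 7 shared cell types and Mt2 in 2 of 7, all 4 higher in the striatum, where 4.85% of all tests were called and 3.35% were called as higher in the striatum. For both genes these were endothelial cells and interneurons. With replicate as a block the same 4 of Mt1 and Mt2 were called, where 5.61% of all tests were. This block assumed that equal replicate numbers share an effect across the tissues. The sources used here do not say that they do. The test measures the spread between libraries, and tissue cannot be told apart from the preparation of that tissue.

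Endothelial cells showed the clearest change. Mt1 was 797 and 587 CPM in WT and 225 and 514 in Setd1a+/- libraries of the PFC, against 1389 and 1710 in WT and 1224 and 1502 in Setd1a+/- libraries of the striatum. Mt2 was 268 and 127 CPM in WT and 54.8 and 118 in Setd1a+/- libraries of the PFC, against 439, 631, 433 and 395 in the striatum. The 4 libraries of the tissues did not overlap for either gene. The share of all genes without such overlap is not given here, so this is a description. Mt1 rose by 1.54 on the log2 scale (SE 0.27, adjusted p = 0.00474, edgeR) and Mt2 by 1.86 (SE 0.30, adjusted p = 0.00339, edgeR), in a cell type where 4.59% of genes were called. Leaving out each of the 8 libraries in turn kept both calls, at 1.24 to 1.70 for Mt1 and 1.53 to 2.24 for Mt2.

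Astrocyte transcripts in endothelial cells overlapped between the tissues. The sum of 8 astrocyte markers was 288 to 510 CPM in the PFC and 328 to 791 in the striatum, and 29.9 to 49.8% of the cells held such a UMI. Gnao1, a gene highest in astrocytes, was itself called higher in striatal endothelial cells (1.93). Without the cells with an astrocyte marker UMI, the differences were 1.58 for Mt1 (adjusted p = 0.00413, edgeR) and 1.87 for Mt2 (adjusted p = 0.00564, edgeR). Free RNA was also richer in Mt1 in the striatum, and striatal endothelial cells were at 1.1 to 1.47 of the free RNA level of Mt1 against 0.43 to 0.812 in the PFC. For Mt2, free RNA overlapped between the tissues, at 136 to 253 CPM in the PFC and 116 to 242 in the striatum. Mural cell markers were similar, at 4380 to 5164 CPM in the PFC and 3922 to 4543 in the striatum. The sum of 6 interneuron markers was low in endothelial cells but higher in the striatum, at 98.4 to 203 CPM against 10.5 to 21.2 in the PFC, and their part in the difference was not tested. Cells with no mural marker UMI had 1772 to 2296 CPM of Mt1 in the striatum and 289 to 879 in the PFC. The part of mural cells in the difference was not tested.

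**Figure D4:**
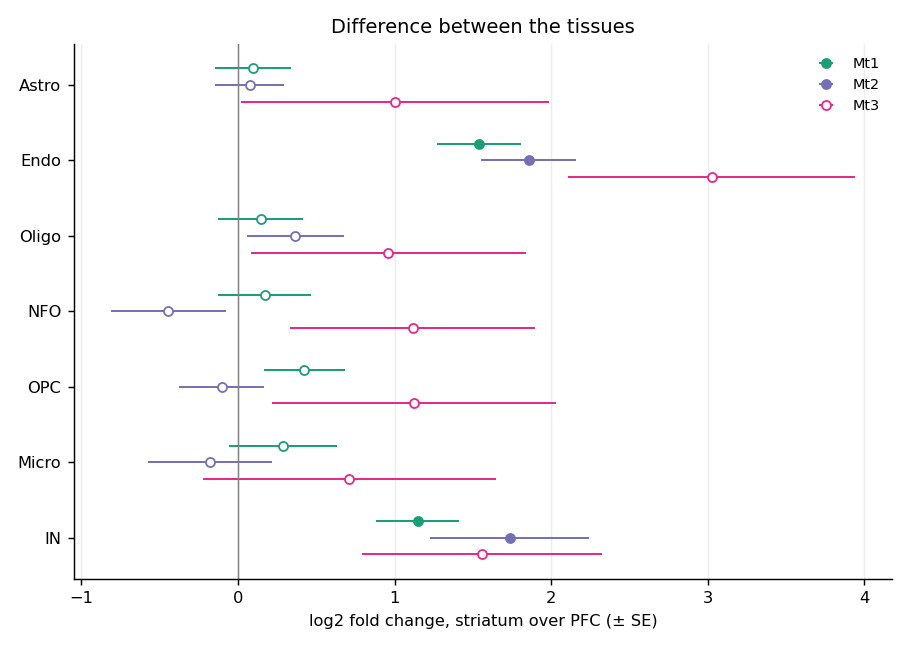
Difference between striatum and PFC (x axis, log2 fold change of striatum over PFC with its SE from edgeR) for Mt1, Mt2 and Mt3 in the 7 cell types annotated in both tissues; filled points were called. Endothelial cells (1.54 and 1.86) and interneurons (1.15 and 1.74) hold the called differences of Mt1 and Mt2, and the Mt3 points are a description because 2 of the 4 PFC libraries nearly lack it.

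The interneuron difference rested in part on a single cell. Mt1 was 134 and 199 CPM in WT and 84.3 and 232 in Setd1a+/- libraries of the PFC, and 266, 313, 493 and 371 in the striatum, a difference of 1.15 on the log2 scale (SE 0.27, adjusted p = 0.00889, edgeR). Mt2 was 5.72 and 17.9 CPM in WT and 15.5 and 46.3 in Setd1a+/- libraries of the PFC, and 28.8, 30.4, 186 and 45.3 in the striatum, a difference of 1.74 (SE 0.51, adjusted p = 0.037, edgeR), in a type where 7.83% of genes were called. In the first striatal Setd1a+/- library, 1 of 138 interneurons held 105 of the 151 Mt2 UMIs (69.5%, Wilson 95% interval 61.8 to 76.3%, counting error only) and 166 of 400 Mt1 UMIs. It had 63 UMIs of interneuron markers and none of the 8 astrocyte markers, in 10067 UMIs. Without this cell the library's Mt2 level was 57.4 CPM. The tissue differences were then 0.96 for Mt1 (adjusted p = 0.019, edgeR) and 1.00 for Mt2 (adjusted p = 0.0675, edgeR), and neither was called. With the PFC replicate 2 libraries alone they were 0.69 and 1.05, again not called. Markers moved with the tissue in this class as well. The sum of 8 astrocyte markers in interneurons was 160 to 235 CPM in the PFC, where 4 to 7 of the 8 were detected, and 239 to 441 in the striatum, where 5 to 7 were. Without cells holding such a UMI, the difference of Mt1 was 1.62 (adjusted p = 0.0282, edgeR), but this set keeps the cell described above, as 1 of the 51 cells left in its library (882 CPM of Mt1, against 265 to 335 in the other striatal libraries). The 6 interneuron markers summed to 11851 to 15082 CPM in the PFC, with a UMI in 100% of cells, and to 3218 to 7119 in the striatum, in 80.9 to 85.5% of cells, so the class differed between the tissues. The part of this in the differences was not tested. The Mt1 call was also lost without the first Setd1a+/- library of the PFC (0.82), and the Mt2 call without any of 5 libraries, namely both replicate 1 libraries of the PFC and 3 of the striatum, at 0.94 to 1.78.

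Astrocytes, which had the highest levels of both genes, did not pass the test between the tissues. The difference was 0.10 for Mt1 (SE 0.24, adjusted p = 0.86, edgeR) and 0.07 for Mt2 (SE 0.22, adjusted p = 0.891, edgeR). The remaining 4 types had differences between 0.14 and 0.42 for Mt1 and between -0.44 and 0.37 for Mt2. For Mt3 the values of PFC replicate 2 and the striatum are set side by side without a test: 4707 and 3984 against 3515 to 5803 CPM in astrocytes, 526 and 453 against 565 to 802 in interneurons, and 95.4 and 48.2 against 134 to 324 in endothelial cells.

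The study's main question was how loss of 1 copy of Setd1a changes expression, and Mt1, Mt2 and Mt3 were compared between genotypes within each tissue. In its discussion the paper counts Mt3 among the genes regulated by Setd1a, without naming a cell type or assay for it there. With 2 libraries per group and the same edgeR test, no difference was called for the 3 genes, while a fit with replicate as a block called 2 in the PFC and 1 in the striatum, of Mt1 and Mt2 in PFC endothelial cells and of Mt2 in striatal interneurons. In the PFC 23 tests over cell types and 14 over excitatory neuron subtypes gave 0 calls, with 0% of all tests called in both sets (1 and 4 further tests failed the filter on low counts). Of these, 8 and 6 were of Mt3, whose replicate gap gave SEs of 1.53 to 2.46 and 1.63 to 2.06. Their lack of a call is no result on genotype. In the striatum 30 tests gave 0 calls, with 0.00544% of all tests called. At an unadjusted p under 0.05 there were 1, 0 and 5 tests of the 3 genes, and DESeq2 called 0 of 37 in the PFC and 0 of 30 in the striatum, with 2 and 3 at an unadjusted p under 0.05. The 37 include the tests of Mt3. The shares of all tests at the unadjusted limit, and of all DESeq2 tests called, are not given here. These counts are therefore no result on the genes. A call needed a change above 1.5-fold in the PFC and above 2-fold in the striatum. Leaving out 1 library changed the PFC count most: without the second Setd1a+/- library 6 of the 23 were called, namely Mt1 in astrocytes and endothelial cells, Mt2 in endothelial cells and Mt3 in astrocytes, endothelial cells and interneurons, and without the second WT library 2 were, both of Mt3, where 0.212% and 0.0605% of all tests were called. The lone library of a genotype was then assumed to vary like the other genotype's. It was a replicate 1 library, nearly without Mt3, set against a genotype with a replicate 2 library, so the Mt3 calls are the replicate gap that chose the gene and no result on genotype.

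In PFC astrocytes the difference of Setd1a+/- over WT was -0.30 on the log2 scale for Mt1 (SE 0.29) and -0.26 for Mt2 (SE 0.27). The first Setd1a+/- library was the lowest of the 4 for both genes, and without the second one the difference of Mt1 was -0.94 and was called. In striatal astrocytes it was -0.34 for Mt1 (SE 0.35) and -0.31 for Mt2 (SE 0.34), where the second Setd1a+/- library was the lowest. None of these passed the test. For Mt3 in striatal astrocytes it was -0.11 (SE 0.38), and in PFC astrocytes it was -0.20 with an SE of 1.55. With the replicate block the PFC value was -0.23 (SE 0.31). It is a description, since the replicate 1 libraries held only 4 and 1 Mt3 UMIs in astrocytes.

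PFC excitatory neurons and D1 and D2 neurons had differences smaller than their SE in the fit without the replicate block. In PFC excitatory neurons Mt1 was 163 and 237 CPM in WT against 139 and 226 in Setd1a+/- libraries (-0.12, SE 0.35), and in D1 neurons it was 885 and 1122 against 770 and 1312 (0.10, SE 0.26). In D2 neurons Mt1 was 774 and 1000 CPM in WT against 546 and 1240 in Setd1a+/- libraries (0.07, SE 0.33). Mt3 was steadier. In D1 neurons it was 645 and 472 CPM against 651 and 530 (0.12, SE 0.18), and in D2 neurons 672 and 501 against 623 and 611 (0.12, SE 0.18). The genotypes overlapped in each of these 5 cases. With the replicate block, Mt2 in D1 neurons (0.18, SE 0.16) and Mt3 in D1 (0.1345, SE 0.1283) and D2 neurons (0.1374, SE 0.1339) exceeded their SE. So did Mt3 in PFC excitatory neurons (-0.43, SE 0.27), whose values are a description. The other blocked differences of the 3 genes in these types were smaller than their SE, and none was called.

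PFC endothelial cells had the largest differences of Mt1 and Mt2 among the PFC cell types, -0.86 for Mt1 (SE 0.40, unadjusted p = 0.0644) and -1.23 for Mt2 (SE 0.47, unadjusted p = 0.0303), with adjusted p = 0.999 for both (edgeR). Since a replicate consisted of 1 WT and 1 Setd1a+/- library, the test was also run with replicate as a block. Both were then called, Mt1 at -0.99 (SE 0.23, adjusted p = 0.0287, edgeR) and Mt2 at -1.33 (SE 0.27, adjusted p = 0.00651, edgeR), where 0.182% of genes were called in this type and 0.0508% of tests over all PFC types. Without the second Setd1a+/- library the unblocked differences were also called, at -1.62 and -1.87. Without the first Setd1a+/- library they were -0.34 and -0.67, and without the first WT library -0.62 and -0.57, and neither gene was called. The differences were uneven between replicates, -1.82 and -0.19 for Mt1 and -2.29 and -0.11 for Mt2 in replicates 1 and 2. When endothelial cells with an astrocyte marker UMI were left out, the blocked differences were -0.89 (adjusted p = 0.0618, edgeR) and -1.14 (adjusted p = 0.0875, edgeR), and neither was called. Both genes were below the free RNA level of their library in these cells, except Mt2 in the first WT library at 1.06 of it, and free RNA of Mt1 was 982 CPM in that WT library against 525 in the first Setd1a+/- library. In striatal endothelial cells the differences were -0.15 for Mt1 (SE 0.20) and -0.33 for Mt2 (SE 0.22).

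Interneurons and neuroblasts of the striatum held the 4 largest positive differences in the striatum. The largest negative one was of Mt2 in newly formed oligodendrocytes, from 4 to 20 Mt2 UMIs per library. It was -1.41 (SE 0.60, unadjusted p = 0.0368, adjusted p = 0.999, edgeR) and was not called. Mt2 in interneurons differed by 1.97 (SE 0.46, adjusted p = 0.929, edgeR) and was called with the replicate block (1.84, adjusted p = 0.00579, edgeR), in a type where 0.087% of genes were called with it (0.108% of tests over all striatal types). The unblocked difference was also called without either WT library or without the second Setd1a+/- library, at 1.93 to 2.69, and without the first Setd1a+/- library it was 0.65 and was not called. Mt1 in interneurons differed by 0.62 (SE 0.18, unadjusted p = 0.00393, adjusted p = 1.00, edgeR). Without the interneuron described above, the level of Mt1 in its library was 292 CPM, within the WT range of 266 to 313, the unblocked difference of Mt2 was 0.82 and the blocked one 0.83 (adjusted p = 0.572, edgeR). In neural stem cells and neuroblasts Mt1 was 289 and 370 CPM in WT against 441 and 620 in Setd1a+/- libraries (0.70, SE 0.26), and Mt3 was 64.5 and 106 against 142 and 155 (0.88, SE 0.32). The libraries of the genotypes did not overlap there for either gene, and the adjusted p was 1.00 for both (edgeR). The share of all genes without such overlap is not given here. Lack of overlap, here and in the subsets of these cells below, is therefore no result on genotype. Single cells weighed on Mt3: the cell with the most Mt3 UMIs held 6 of 18 in the second WT library and 9 of 19 in the second Setd1a+/- library, and both had astrocyte marker UMIs. Without that cell in each of the 4 libraries Mt3 was 54.7 and 72 CPM in WT against 107 and 84.4 in Setd1a+/- libraries, which do not overlap. Among the cells with no astrocyte marker UMI, Mt3 was 8.85 and 37.6 CPM against 64.6 and 75.5, again without overlap but from only 1, 3, 14 and 5 Mt3 UMIs, while Mt1 was 248 and 225 CPM against 157 and 377, which overlap.

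Whether the genotype difference differed between the tissues was tested as an interaction. None of 21 tests was called by edgeR, with 0% of all tests called, and at an unadjusted p under 0.05 there were 0 too. Of the 21, 7 were of Mt3, with SEs of 1.6 to 2.05 from its PFC replicate gap. Their lack of a call is no result on genotype. With the replicate block 0 of 21 were called, and 0.00801% of all tests were called. At an unadjusted p under 0.05 there were 4, without the share of all tests at that limit beside them. Without the second WT library of the PFC 1 was called (Mt3 in astrocytes), whose PFC values are a description. Summed over all annotated cells, Mt1 was 846 and 660 CPM in WT and 285 and 1055 in Setd1a+/- libraries of the PFC, and the low and the high value of Setd1a+/- went with the share of astrocytes, 2.88% and 11.5% of the cells. They also went with the Mt1 level within astrocytes, 5964 and 10974 CPM. The first Setd1a+/- library was the lower of the 2 in every other PFC type as well. In the striatum astrocytes were 1.24 to 9.33% of the cells and gave 9.36 to 56.4% of the Mt1 UMIs and 26.2 to 69.8% of the Mt2 UMIs. From such sums alone fewer astrocytes and less Mt1 per astrocyte cannot be told apart.

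Genes that handle the same metals were read from lists chosen for this tissue. Among the zinc sensor Mtf1 and the zinc transporters, 0 of 76 tests in the PFC and 0 of 105 in the striatum were called between genotypes, and between the tissues 0 were called higher and 2 lower in the striatum of 61 (3.28%), beside 4.85% of all tests. These were the efflux transporter Slc30a10 in astrocytes (-1.32, SE 0.26) and the synaptic vesicle zinc transporter Slc30a3 in interneurons (-1.31, SE 0.26). Slc30a10 stands in the list as a member of the Slc30 family, and the metal it moves was not measured. The list's median in endothelial cells, where Mt1 and Mt2 were called, was -0.015 on the log2 scale against -0.00755 for all genes. Of 21 genes of this list, 3 were highest in astrocytes in each tissue, among them the zinc importer Slc39a12 at 407 CPM in the PFC and 220 in the striatum. Slc30a1, the zinc exporter that MTF1 regulates together with the metallothioneins, was highest in endothelial cells, with 204 and 185 CPM.

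Of the 8 genes for copper handling, 0 were called higher and 1 lower in the striatum of 42 tests (2.38%), the transporter Slc31a2 in microglia (-1.16, SE 0.34). The copper chaperone Atox1 was highest in endothelial cells, at 1222 CPM in the PFC and 1380 in the striatum. Among glucocorticoid-responsive genes, 2 were called higher and 3 lower in the striatum of 39 tests (12.8%, beside 4.85% of all tests), all 5 of them among the 8 tests in interneurons (Cdkn1a and Klf9 higher, Sgk1, Zbtb16 and Errfi1 lower), and none in endothelial cells, where the list's median was -0.06. Of the genes of oxidative stress and iron storage, 1 was called higher and 1 lower of 61 tests (3.28%), both in astrocytes: Gclm, a subunit of the enzyme that limits glutathione synthesis (1.40, SE 0.36), and the cystine transporter Slc7a11 (-1.13, SE 0.27). Genes of the response to tissue dissociation were highest in endothelial cells in both tissues for 12 of 12 genes, and 6 of 54 tests between the tissues were called, all higher in the striatum (11.1%, beside 3.35% of all tests), with none of the 12 tested in endothelial cells called. Of the 6 genes next to the cluster, 1 of 25 tests was called (4%), Gnao1 in endothelial cells (1.93, SE 0.29), a gene whose level was highest in astrocytes in both tissues. Between genotypes edgeR and DESeq2 each called 0 of 310 tests of the listed genes in the PFC and 0 of 433 in the striatum. At an unadjusted p under 0.05 there were 16 and 24 with edgeR and 9 and 11 with DESeq2, without the share of all tests at that limit beside them. Mt4 had 1 UMI in all annotated cells.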

How the data were processed

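Single-cell libraries were made from PFC and striatum after papain dissociation and an OptiPrep gradient, with cells captured on the 10x Chromium platform. The authors made the UMI counts with Cell Ranger 3.0.2 (build mm10 per the labels), and the deposited counts are raw, per gene and barcode. Deposited tables annotate the cells the authors kept (at least 800 genes, at most 10% mitochondrial UMIs) with the cell type, the excitatory subtype and other details, after integration in Seurat 3.2.0. A step for doublets is not given in the sources used here, and no doublet caller was run. Authors' gene-by-cell tables without gene names were not used here.

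UMIs were summed per type and library (at least 10 cells in each) and tested with edgeR 4.0.16 in R 4.3.3: TMM, filterByExpr with a minimum count of 10, quasi-likelihood test, Benjamini-Hochberg over all genes of a type. Calls needed an FDR under 0.05 and a fold above 1.5 (PFC genotype) or 2 (otherwise), and interactions the FDR alone. DESeq2 1.42.0 was an alternative, and the genotype and tissue tests were tested on simulated data, where 84.6%, 82.3% and 98.2% of 4-fold changes in astrocytes were recovered for genotype in the PFC, genotype in the striatum and tissue. There were 3, 6 and 12 false calls, by FDR alone. The simulated counts had 1 fixed dispersion for all genes and no replicate effect. These shares therefore do not show what the tests can find in the libraries described here. Means, correlations and figures were made in Python 3.11.15. Coordinates and coding sequences are from GENCODE vM21 (GRCm38). The 3 genes and all gene lists were chosen with earlier results of these data known. Named genes were the members, list genes that were called or had the highest CPM, and for each member the 5 genes of highest correlation among those with at least 200 UMIs. Per the methods, a biological replicate consisted of 1 WT and 1 Setd1a+/- library, so equal replicate numbers pair libraries; deviations of same-numbered libraries from their genotype mean had median correlations across genes of 0.373 in the PFC (0.00386 to 0.572 over 8 types) and 0.335 in the striatum (0.136 to 0.425 over 10 types).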

Additional observations from a re-analysis of the deposited data

Results flagged for a closer look

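In 54 groups of 4 libraries (3 genes by 18 combinations of tissue and cell type), 2 held a library far from the other 3, by a test in which chance marks about 1 in 20 groups. Mt2 in striatal astrocytes was 2591 CPM in the second Setd1a+/- library and 3750 to 3769 in the others; this library had 31 annotated astrocytes, the fewest of all 8. Mt2 in striatal interneurons was 186 CPM in the first Setd1a+/- library and 28.8 to 45.3 in the others, and 57.4 CPM without the interneuron that held 105 of its 151 Mt2 UMIs.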

How the results depend on the processing

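The replicate block called 2 of 23 PFC cell type tests between genotypes and 1 of 30 striatal ones, against 0 without it. It changed no other call of Mt1 or Mt2; its tissue value of Mt3 in endothelial cells (3.37) is a description, since both PFC replicate 1 libraries held 0 Mt3 UMIs there. The sign turned with it for the genotype differences of Mt1 in D2 neurons (-0.036) and Mt2 over all striatal cells (-0.11), and for the interactions of Mt1 in astrocytes (0.070) and Mt3 in microglia (0.16), none called. With the block but without cells with an astrocyte marker UMI, 1 striatal test was called, Mt2 in interneurons, where 0.145% of all tests were called; this set keeps the interneuron with the most Mt2 UMIs. With no filter on low counts, 1 striatal genotype test (Mt2 in interneurons, 0.0715% of all tests called) and 9 tissue tests (4.9% of all tests) were called, 5 of these being of Mt3, whose PFC values are a description. Tissue calls numbered 2 of 21 with PFC replicate 2 alone and 2 without the interneuron with the most Mt2 UMIs. These last 2 settings with left-out cells were chosen after seeing the data, as were all those without astrocyte marker cells. The shares of all tests called with PFC replicate 2 alone and without that interneuron are not given here. The count of 2 of 21 in these settings is therefore no result on the genes.

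With PFC replicate 2 alone, tissue differences turned negative for Mt1 in astrocytes (-0.21), microglia (-0.27), newly formed oligodendrocytes (-0.22) and oligodendrocytes (-0.29), for Mt2 in astrocytes (-0.083), and for Mt3 in astrocytes (-0.026), microglia (-0.39), newly formed oligodendrocytes (-0.28) and oligodendrocytes (-0.23). With library totals alone, Mt2 in microglia was 0.0088. The cause of these changes was not tested.

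Leaving out 1 library gave 0 to 6 genotype calls over PFC cell types (0.0453 to 0.212% of all tests called), 0 to 2 over subtypes (0.0145 to 0.624%), 0 to 1 over striatal types (0.0828 to 0.518%), 2 to 6 tissue calls (3.47 to 7.09%) and 0 to 1 interaction calls (0 to 0.00721%). Without the Mt3 values, which hold the replicate gap, these were 0 to 3, 0, 0 to 1, 2 to 4 and 0. Log2 differences whose sign turned had these ranges. For genotype in the PFC, Mt1 ran from -0.94 to 0.13 in astrocytes, -0.57 to 0.25 in excitatory neurons and -1.43 to 0.54 over all cells. Mt2 ran from -0.67 to 0.032, -0.11 to 0.62 and -1.60 to 0.52 in the same groups. Mt3 ran from -8.20 to 7.76 in astrocytes, -8.79 to 6.56 in excitatory neurons, -8.82 to 7.71 in endothelial cells and -8.98 to 7.57 over all cells. For genotype in the striatum, Mt1 ran from -0.37 to 0.46 in D1 neurons, -0.68 to 0.55 in D2 neurons and -0.089 to 0.21 over all cells. Mt2 ran from -0.77 to 0.0028 in astrocytes, -0.25 to 0.56 in D1 neurons, -0.96 to 0.46 in D2 neurons and -0.94 to 0.71 over all cells. Mt3 ran from -0.68 to 0.27 in astrocytes, -0.67 to 0.63 in endothelial cells, -0.079 to 0.35 in D1 neurons, -0.068 to 0.33 in D2 neurons and -0.081 to 0.42 over all cells. Between the tissues, Mt1 ran from -0.095 to 0.32 in astrocytes, -0.0087 to 0.52 in microglia, -0.13 to 0.48 in newly formed oligodendrocytes and -0.10 to 0.48 in oligodendrocytes, and Mt2 from -0.064 to 0.20 in astrocytes, -0.54 to 0.23 in microglia and -0.33 to 0.19 in progenitor cells.

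Of 54 levels, 0 moved by more than the spread between libraries when each cell was weighted equally and 3 without mitochondrial and ribosomal protein genes. The 54 include the Mt3 levels of the PFC, whose SD exceeded the mean in every cell type through the replicate gap. Those levels could hardly be counted as moved. Thinning moved 22 of 27 shares of cells with a UMI. The 2 libraries per genotype limit what a genotype test can show, and p-values measure only the spread between libraries.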

Other observations

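Among genes for oxidative stress and iron storage, Prdx6, an antioxidant peroxiredoxin, was highest in astrocytes, at 3240 CPM in the PFC and 2862 in the striatum. The iron storage gene Fth1 was highest in oligodendrocytes. Tsc22d3, a glucocorticoid-induced gene, was highest in endothelial cells (1897 and 1666 CPM) and was 906 and 770 CPM in astrocytes.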
